A study of Mus musculus with 12 samples.

Results

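Solute carriers are the membrane proteins that move amino acids, sugars, ions, metals, nucleosides and vitamins into cells and between their compartments. The genes described here are the 177 solute carriers expressed in the mouse melanoma line B16.F10, which has a C57BL/6 background. They were chosen as protein-coding genes with a symbol of the form Slc, number, letter, number and a mean value of at least 6 over 12 libraries. Of 361 such symbols in the deposited table, 183 reached that mean, 178 did not, and 34 were at 0 in every library. The 6 genes left out by name were Slc2a1, Slc2a3, Slc16a1, Slc16a3, Slc24a5 and Slc45a2, which carry glucose, lactate or the ions and solutes of pigment granules. All values are the authors' rlog values, which are regularized read counts on a log2 scale. The mean that chose the members is therefore not a result. Just inside the minimum were Slc25a42 at 6.109 and Slc25a53 at 6.139, and just outside were Slc7a8 at 5.881 and Slc25a29 at 5.871. In 8 members (Slc7a4, Slc17a8, Slc18a1, Slc24a4, Slc25a42, Slc25a47, Slc25a53 and Slc43a1) the mean of at least 1 group was under 6, so they are members only through the other groups. Counts over the members below are descriptions for that reason.

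The control cells (siLuc) were transfected with a small interfering RNA to luciferase and the knockdown cells (siPRMT7) with one to Prmt7, an arginine methyltransferase, and RNA was taken at 72 h. Within each kind, 1 group had interferon gamma (IFN-γ), a cytokine of T and NK cells, for the last 24 h and 1 group had none, which gives 4 groups of 3 libraries. All libraries come from 1 cell line, and the labels do not say that replicates were separate cultures, so the p-values measure the spread between these libraries, which may be technical. Library totals ran from 18.971 to 30.978 M reads. Prmt7 itself was at 10.25 ± 0.09 (SD, n = 3) in siLuc and 6.30 ± 0.12 in siPRMT7 cells without IFN-γ, and at 10.25 ± 0.02 and 6.25 ± 0.15 with it. The 7 melanocyte markers examined (Mitf, Sox10, Tyr, Tyrp1, Dct, Pmel and Mlana) had values between 12.10 and 17.33. Of the leukocyte markers reported here, Cd3e and Adgre1 were at 0 in every library and Ptprc and Itgam were below 0, while Cd68 ran from 5.05 to 7.27 and Csf1r from 8.26 to 8.78. Cd68 ran from 5.05 to 5.48 in the 6 siLuc libraries, from 6.33 to 6.68 in siPRMT7 cells and from 7.06 to 7.27 in siPRMT7 cells with IFN-γ. Of 4 fibroblast markers, Dcn was below 0 and Col1a1, Pdgfra and Col1a2 had values, Col1a2 from 7.52 to 9.99. Their summed level was 9.36 to 9.67 in siLuc, 8.01 to 8.20 in siLuc with IFN-γ, 9.91 to 10.09 in siPRMT7 and 9.30 to 9.57 in siPRMT7 cells with IFN-γ. The endothelial markers Pecam1 (2.68 to 3.17) and Cdh5 (below 0) and the keratinocyte markers Krt5 (up to 0.22) and Krt14 (2.34 to 3.41) were low. The part of these markers in the results was not tested. In bulk RNA a change in the share of cells that express a gene and a change in RNA per cell cannot be told apart.

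Solute carriers work as uniporters, symporters or exchangers, and many need a partner. Slc3a2, for example, is the heavy chain that brings Slc7a5 (LAT1, the exchanger of large neutral amino acids such as leucine) and Slc7a11 (xCT, the cystine-glutamate exchanger) to the plasma membrane. Several amino acid carriers are known targets of ATF4, the transcription factor of the integrated stress response, which binds C/EBP-ATF response elements. Most carriers of the Slc25 family span the inner mitochondrial membrane and link the matrix to the cytosol. The class of mitochondrial carriers below holds all members of this family.

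Promoter sequences are shown for 3 of the members whose window holds a motif that was searched for and whose RNA is described below. They are RefSeq windows on GRCm38.p6, from 250 bases before to 50 bases after an annotated start site, written 5′ to 3′ on the gene's strand. The capitals mark the motif on either strand: TGATGNAA, the C/EBP-ATF element, in Slc7a11 and Slc1a4, and an interferon-stimulated response element (GAAA, any 2 bases, GAAA) in Slc25a22. The windows lie on the minus strand at chr3:50443564-50443863 (Slc7a11), chr11:20332664-20332963 (Slc1a4) and chr7:141435326-141435625 (Slc25a22).
Slc7a11: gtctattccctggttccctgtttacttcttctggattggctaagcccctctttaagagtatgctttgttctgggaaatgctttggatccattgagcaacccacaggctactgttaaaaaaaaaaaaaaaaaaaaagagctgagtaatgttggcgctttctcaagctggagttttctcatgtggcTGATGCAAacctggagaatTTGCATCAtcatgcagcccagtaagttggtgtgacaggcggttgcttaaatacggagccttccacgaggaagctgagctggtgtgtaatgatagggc
Slc1a4: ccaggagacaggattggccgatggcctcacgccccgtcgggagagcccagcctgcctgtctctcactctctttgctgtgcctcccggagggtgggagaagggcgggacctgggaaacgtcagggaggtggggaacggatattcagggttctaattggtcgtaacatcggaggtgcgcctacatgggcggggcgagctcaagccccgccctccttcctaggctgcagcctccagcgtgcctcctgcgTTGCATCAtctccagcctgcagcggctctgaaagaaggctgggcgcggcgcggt
Slc25a22: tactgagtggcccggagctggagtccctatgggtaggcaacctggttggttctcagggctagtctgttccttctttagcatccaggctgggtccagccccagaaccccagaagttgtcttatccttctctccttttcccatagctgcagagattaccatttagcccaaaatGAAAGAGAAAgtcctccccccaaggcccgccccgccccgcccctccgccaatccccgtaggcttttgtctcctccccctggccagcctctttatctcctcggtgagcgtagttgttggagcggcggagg
The windows shown are the single window of Slc7a11 and of Slc1a4, and for Slc25a22 the 1 of its 3 windows that holds the element. The Slc7a11 window also holds a match to the gamma-activated site TTCNNNGAA, which is not in capitals. In Slc7a11 the pair of C/EBP-ATF matches begins 66 and 47 bases before the start site, in opposite orientations. The match of Slc1a4 begins 4 bases before the start site and that of Slc25a22 begins 79 bases before it. RefSeq windows were found for 136 members, 185 windows in all. TGATGNAA stood in 3.24% of them and in 3.97% of all 32851 mouse windows of the same length, and the interferon-stimulated response element in 2.16% against 3.44%. The gamma-activated site TTCNNNGAA stood in 4.86% against 8.30%, the E-box CACGTG in 14.1% against 7.15%, and the antioxidant response element core TGACNNNGC in 21.1% against 12.4%. The members were chosen for expression and the mouse windows were not, so the sets are unlike. Some genes also count more than once, through overlapping windows. The differences between these shares were not tested. TGATGNAA also stood in windows of Slc7a7, Slc9a9 and Slc50a1, and the interferon-stimulated response element in windows of Slc2a12, Slc25a15 and Slc37a1. The log2 IFN-γ differences in siLuc and siPRMT7 cells were -0.75 and -0.80 for Slc37a1 and -0.42 and -0.28 for Slc25a15. Those of Slc2a12 were 0.10 and 0.15 (SE 0.11 for both). These genes are listed for their match, and its part in the RNA was not tested. A match is a stretch of letters, not a measured binding site.

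**Figure D1:**
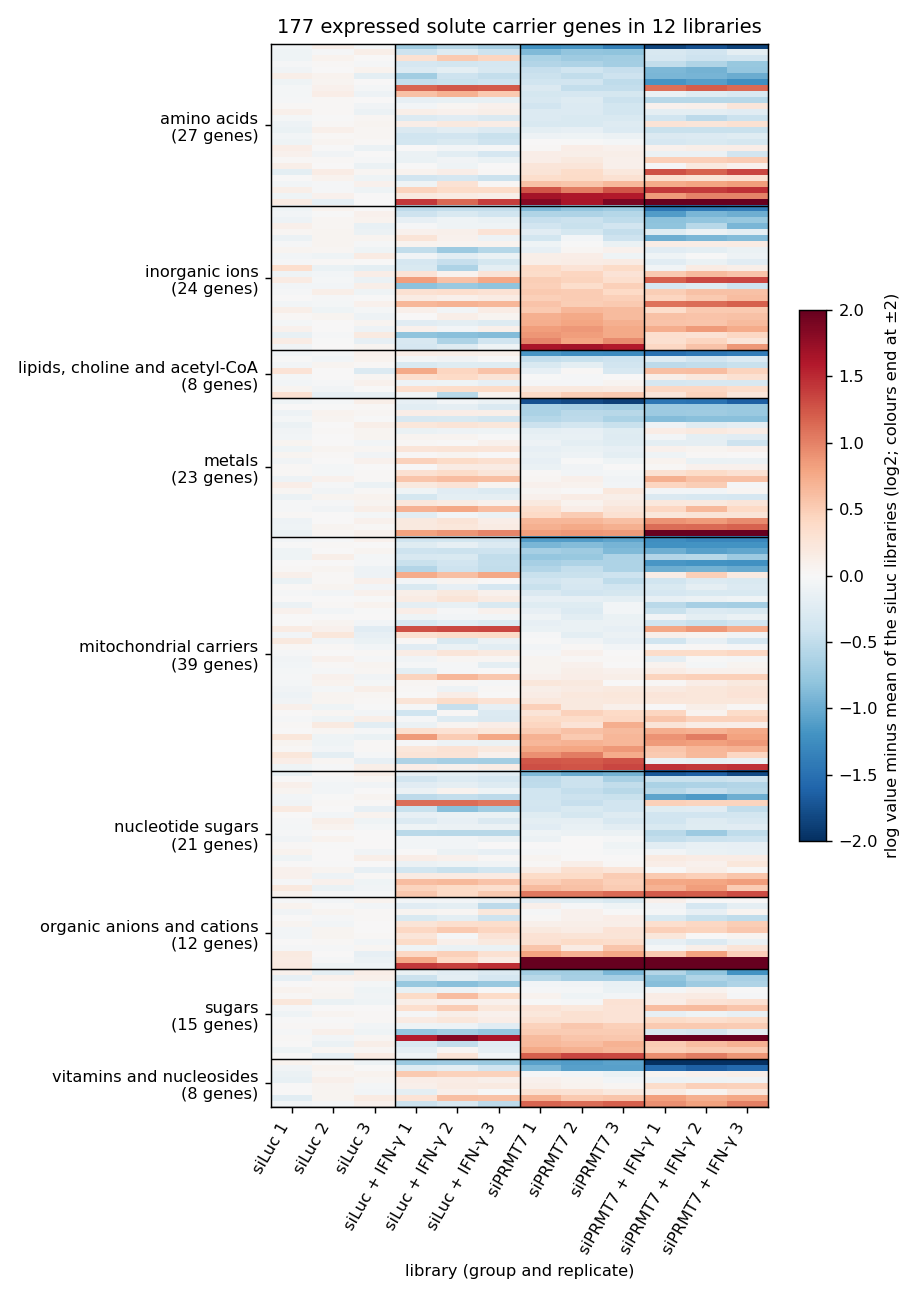
Values of the 177 solute carriers (rows, grouped by substrate class and ordered by knockdown difference) in the 12 libraries (columns), as the difference from the mean of the siLuc libraries without IFN-γ (colour, log2 rlog scale, ending at 2 in either direction). The darkest rows of the organic ion class are Slc17a8 and Slc18a1, high in all 6 siPRMT7 libraries, and the darkest blue row of the metals is Slc31a1.

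Differences were tested with limma over all 14407 genes with a mean of at least 4, and a gene was called at a Benjamini-Hochberg adjusted p under 0.05. Without IFN-γ, 134 of the 177 members were called between siPRMT7 and siLuc cells, 69 higher and 65 lower, and 43 were not called. That is 75.7% of the members, against 75.2% of all genes tested (36.3% higher and 38.9% lower) and 79.0% of genes with a mean of at least 6, so the share is near the background. The groups did not overlap for 137 members, against 76.3% of all genes. With IFN-γ, 133 members were called (68 higher and 65 lower), or 75.1% against a background of 74.7% (35.9% higher and 38.7% lower), or 78.6% at a mean of at least 6. The groups did not overlap for 138 members, against 77.2% of all genes. Only a small number moved far: 11 members were at least 2-fold higher and 6 at least 2-fold lower without IFN-γ, where 4.65% and 3.53% of all genes did so, and 9 and 6 with IFN-γ, where 3.9% and 4.94% did. These include 3 members without IFN-γ (Slc17a8, Slc18a1 and Slc24a4) and 2 with it (Slc17a8 and Slc18a1) that reached the mean of 6 only through other groups. The median difference over the members was 0.02 without and 0.04 with IFN-γ, and over all genes it was -0.01 in both.

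IFN-γ itself was called for fewer members. In siLuc cells 121 members were called (57 higher and 64 lower), which is 68.4% against a background of 60.6% (28.0% higher and 32.7% lower), and the groups did not overlap for 123 members, against 62.1% of all genes. In siPRMT7 cells 113 were called (51 higher and 62 lower), which is 63.8% against 56.6% (28.0% higher and 28.6% lower), and the groups did not overlap for 130 members, against 65.3%. Genes with many reads are called more often, and over all genes with a mean of at least 6 the backgrounds were 65.7% and 60.9%. In siLuc cells 6 members rose at least 2-fold (Slc2a6, Slc6a9, Slc15a2, Slc18a1, Slc25a22 and Slc35f5) and 0 fell that far, where 4.57% and 1.01% of all genes did. The 5 members that rose at least 2-fold in siPRMT7 cells were Slc2a6, Slc6a9, Slc15a2, Slc18a1 and Slc31a2, and the 3 that fell that far were Slc24a4, Slc25a34 and Slc29a1, where 3.57% and 2.69% of all genes did so. Slc18a1 and Slc24a4 reached the mean of 6 only through other groups, so they are counted here as a description. The interaction, which is the knockdown difference with IFN-γ less that without it, was called for 69 members (32 higher and 37 lower), which is 39.0% against 30.6% of all genes (14.1% higher and 16.5% lower) and 33.7% of genes with a mean of at least 6. The balance of directions moved with the scaling: IFN-γ in siLuc cells gave 47 higher and 81 lower after quantile normalization, and the interaction 35 higher and 26 lower after median centring. Shares of all genes under another scaling are not given, here or below. Such counts therefore show only how the counts depend on the scaling.

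**Figure D2:**
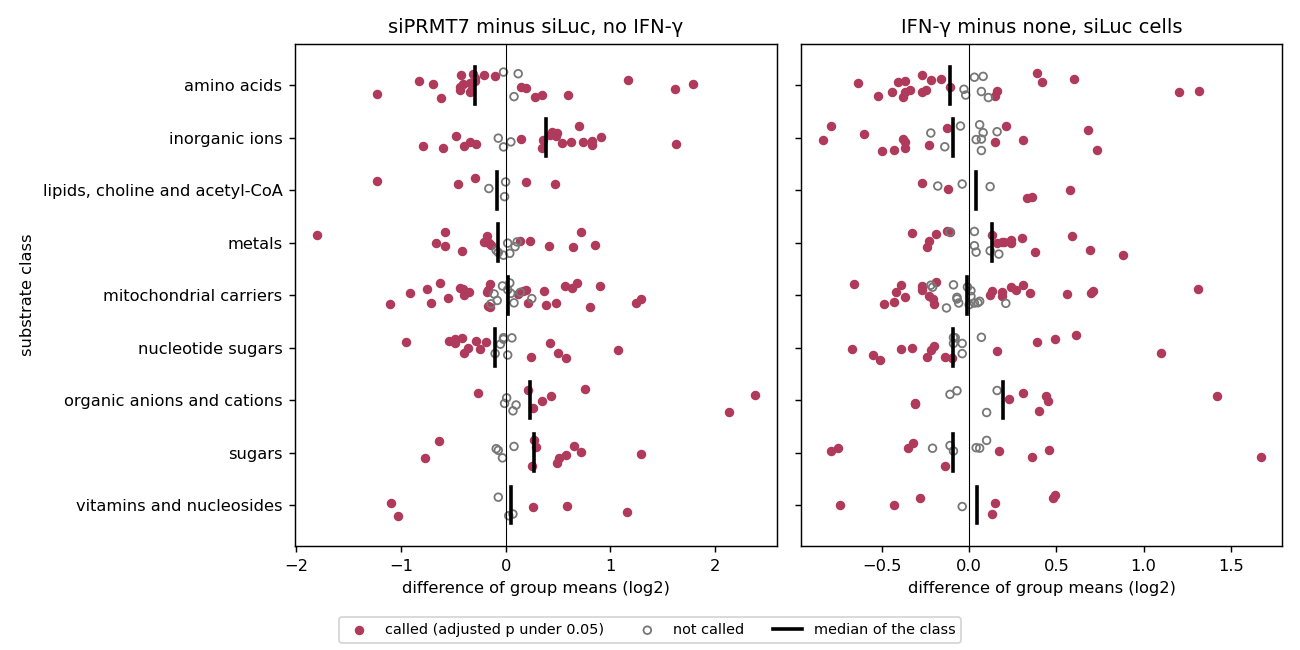
Log2 differences of group means for each of the 177 members (points, filled where called at an adjusted p under 0.05, open where not) by substrate class, with the class median as a bar, for siPRMT7 against siLuc without IFN-γ (left) and for IFN-γ against none in siLuc cells (right). The knockdown median is 0.39 for inorganic ion carriers and -0.29 for amino acid carriers, and the IFN-γ medians lie between -0.11 and 0.20.

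The counts by substrate are read against the shares of all genes given above, which for knockdown are 36.3% higher and 38.9% lower without IFN-γ and 35.9% and 38.7% with it. Among 24 carriers of inorganic ions, 15 were higher and 6 lower in siPRMT7 cells without IFN-γ, and 17 and 6 with it, with a median of 0.39 both times. Among 15 carriers of sugars and related solutes, 9 were higher and 2 lower, then 8 and 4 (10 and 3 after median centring). Classes were set by Slc family, so this one holds the multivitamin carrier Slc5a6, counted among the lower ones both times. Among 27 carriers of amino acids and peptides, 8 were higher and 16 lower without IFN-γ, but 11 and 11 with it, and their median was -0.29 and then 0.03. After quantile normalization the first split was 11 higher and 14 lower, with a median of -0.14. The 23 metal carriers split 6 to 10 in both comparisons (8 to 8 in the second after median centring), and the 39 mitochondrial carriers 14 to 15 and then 13 to 15. The 21 carriers of the nucleotide sugar families split 5 to 10 and then 7 to 9. Of the 12 carriers of organic anions and cations, 7 were higher and 1 lower without IFN-γ, and 2 and 1 with it (6 and 1 after median centring). Slc17a8 and Slc18a1, which reached the mean of 6 only through other groups, are counted among the higher ones both times. The same holds for Slc24a4 among the inorganic ion carriers and Slc25a53 among the mitochondrial carriers, and without IFN-γ for Slc25a42. Slc7a4 and Slc43a1, amino acid carriers that also reached that mean only through other groups, are counted among the lower ones both times. The 8 carriers of vitamins and nucleosides split 3 to 2 and then 3 to 4. The 8 carriers of lipids, choline and acetyl-CoA split 2 to 3 and then 1 to 5, which became 1 to 4 and 2 to 4 after quantile normalization. With IFN-γ in siLuc cells, 11 metal carriers rose and 6 fell, with a median of 0.13 (0.03 after quantile normalization), while 7 amino acid carriers rose and 14 fell, with a median of -0.11. None of these classes was tested against the others.

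Among the amino acid carriers, Slc7a5 and Slc43a2, both carriers of large neutral amino acids, moved in opposite directions with knockdown. Slc7a5 was at 13.10, 13.26 and 13.12 in the siLuc libraries and 12.46, 12.61 and 12.49 with IFN-γ. In siPRMT7 cells it was at 11.96, 12 and 11.81, and with IFN-γ at 11.33, 11.42 and 11.31. Each group lay apart from the others, with the siLuc libraries highest and the siPRMT7 libraries with IFN-γ lowest. The knockdown difference was -1.23 (SE 0.05, adjusted p = 9.02e-15, limma), or 2.35-fold lower, without IFN-γ and -1.16 (SE 0.05, adjusted p = 2.20e-14) with it. The IFN-γ difference was -0.64 in siLuc cells (adjusted p = 7.60e-10) and -0.57 in siPRMT7 cells (adjusted p = 4.93e-09). Slc43a2 (LAT4) was at 8.79, 8.96 and 8.88 in siLuc cells and 10.54, 10.50 and 10.46 in siPRMT7 cells. With IFN-γ it was at 9.07, 9.04 and 8.99 in siLuc and 9.73, 9.87 and 9.87 in siPRMT7 cells. All 6 siPRMT7 libraries were above all 6 siLuc libraries, but less so with IFN-γ: the difference was 1.62 (SE 0.05, adjusted p = 2.10e-16) without it and 0.79 (adjusted p = 2.40e-11) with it, and the interaction was -0.83 (SE 0.08, adjusted p = 2.82e-08). IFN-γ gave 0.15 in siLuc cells (adjusted p = 0.0191, limma) and -0.67 in siPRMT7 cells (adjusted p = 6.14e-10), where Slc7a5 fell as well.

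Slc3a2, the shared heavy chain, rose with knockdown, where Slc7a5 fell. Its siLuc libraries were at 12.37, 12.37 and 12.32, and its siPRMT7 libraries at 12.49, 12.55 and 12.45. With IFN-γ the values were 12.22, 12.28 and 12.22 in siLuc and 12.82, 12.83 and 12.85 in siPRMT7 cells. The siPRMT7 libraries with IFN-γ were thus the highest and the siLuc libraries with IFN-γ the lowest, with no overlap between groups. The knockdown difference was 0.15 (adjusted p = 0.000751) without IFN-γ and 0.59 (SE 0.04, adjusted p = 2.87e-12) with it, and the interaction was 0.44 (SE 0.05, adjusted p = 6.16e-07). IFN-γ gave -0.11 in siLuc cells (adjusted p = 0.0127), in the direction of Slc7a5, and 0.33 in siPRMT7 cells (adjusted p = 5.44e-08), against it.

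Slc7a11, whose promoter holds the pair of C/EBP-ATF matches shown above, was high in 1 group. It was at 9.92, 9.83 and 9.98 in siPRMT7 cells with IFN-γ. Elsewhere it lay between 8.46 and 9.02, with siLuc libraries at 8.46, 8.80 and 8.69, siLuc libraries with IFN-γ at 8.72, 8.78 and 8.68, and siPRMT7 libraries at 8.91, 9.02 and 8.86. The knockdown difference was 1.18 (SE 0.07, adjusted p = 4.04e-12), or 2.27-fold, with IFN-γ and 0.28 (SE 0.07, adjusted p = 0.00171) without it. IFN-γ gave 0.98 (adjusted p = 1.61e-10) in siPRMT7 cells and 0.07 (adjusted p = 0.394) in siLuc cells. The interaction of 0.91 (SE 0.10, adjusted p = 5.88e-07) was the highest among the 177 members.

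The 8 carriers known as ATF4 targets, Slc7a11, Slc3a2 and Slc7a5 among them, moved in more than 1 way. Of these, 2 were higher and 6 lower in siPRMT7 cells without IFN-γ, 3 were higher and 4 lower with it, and the interaction was called higher in 4 (Slc7a11, Slc3a2, Slc38a2 and Slc6a9) and lower in 0. Over all genes the shares were 36.3% and 38.9%, 35.9% and 38.7%, and 14.1% and 16.5%. No window of Slc3a2, Slc38a2 or Slc6a9 held TGATGNAA. The interactions of Slc7a7, Slc9a9 and Slc50a1, which had a window with that match, were -0.11, 0.01 and -0.34. The part of the match in these values was not tested. Slc1a4 (ASCT1, a carrier of alanine, serine and cysteine), which has a single match in the window shown, was at 8.90, 9.06 and 9.0 in siLuc and 8.35, 8.28 and 8.29 in siPRMT7 cells. With IFN-γ it was at 9.30, 9.51 and 9.42 and at 8.66, 8.58 and 8.61. It was lower in every siPRMT7 library than in any siLuc library, by -0.69 (adjusted p = 2.77e-09) without and -0.79 (adjusted p = 2.68e-10) with IFN-γ, and its interaction of -0.11 was not called (adjusted p = 0.39). Slc1a5 (ASCT2, the glutamine carrier) differed by -0.31 in both comparisons (adjusted p = 4.29e-06 and 3.18e-06). Slc38a2 (SNAT2, a sodium-coupled carrier of small neutral amino acids) fell by 0.29 without IFN-γ, and the difference was 0.12 with it; its interaction was 0.40 (adjusted p = 1.25e-05). Slc7a1, the cationic amino acid carrier CAT1, differed by -0.21 without IFN-γ, which was -0.066 and not called after quantile normalization, and by -0.19 with it, which was -0.103 and not called after median centring. Of the 6 heteromeric amino acid transporter members, 3 were higher and 2 lower after knockdown in either comparison. Slc3a1, counted among the higher, is uncertain. Prepl on the opposite strand covers 26.5% of its exon bases and has the higher mean, 9.71 against 6.87.

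Slc6a9 (GlyT1, the glycine carrier) rose with IFN-γ in both kinds of cell. It was at 9.17, 9.30 and 9.17 in siLuc and 10.37, 10.45 and 10.43 with IFN-γ, and at 8.92, 8.74 and 8.73 in siPRMT7 and 10.31, 10.42 and 10.34 with IFN-γ. All 6 libraries with IFN-γ were above all 6 without it. The IFN-γ difference was 1.20 (SE 0.06, adjusted p = 6.16e-14) in siLuc and 1.56 (SE 0.06, adjusted p = 5.21e-16) in siPRMT7 cells. The knockdown difference was -0.41 (adjusted p = 1.16e-06, limma) without IFN-γ and -0.06 (adjusted p = 0.344) with it, and the interaction was 0.35 (adjusted p = 0.00183). Ccdc24, on the opposite strand, overlaps 27.8% of the exon bases of Slc6a9 with a mean of 8.55, and whether reads were counted by strand is not stated in the sources used here. Slc6a15 (B0AT2, a neutral amino acid carrier) was at 9.16, 9.22 and 9.37 in siLuc and 8.36, 8.46 and 8.45 in siPRMT7 cells. With IFN-γ these groups met, at 8.83, 8.99 and 8.83 and at 8.93, 8.86 and 9.05. The knockdown difference of -0.83 (adjusted p = 5.89e-10) without IFN-γ stood beside 0.06 (adjusted p = 0.417) with it, and the interaction was 0.89 (SE 0.10, adjusted p = 3.43e-07). Slc6a17, a vesicular carrier of neutral amino acids, was lower in siPRMT7 cells by -0.43 and -0.73, and IFN-γ differences were -0.44 in siLuc and -0.73 in siPRMT7 cells (interaction adjusted p = 0.00185).

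Slc15a2 (PEPT2, the proton-coupled carrier of di- and tripeptides) was raised in both contrasts. The siLuc libraries were at 7.58, 7.25 and 7.42, and at 8.84, 8.57 and 8.80 with IFN-γ. The siPRMT7 libraries were at 9.25, 9.06 and 9.30, and at 10.27, 10.28 and 10.30 with IFN-γ. The groups formed 4 separate steps. The knockdown gave 1.79 (SE 0.08, adjusted p = 3.52e-14) and, with IFN-γ, 1.55 (SE 0.08, adjusted p = 3.78e-13). IFN-γ gave 1.32 in siLuc and 1.07 in siPRMT7 cells (adjusted p = 9.27e-12 and 2.78e-10), and the interaction of -0.24 was not called (adjusted p = 0.122). Of the 4 members known as lysosomal carriers of immune cells, 3 were higher and 1 lower with IFN-γ in siLuc cells and 1 and 0 in siPRMT7 cells (1 and 1 after quantile normalization), where all genes gave 28.0% and 32.7%, then 28.0% and 28.6%. One of them, Slc15a4, the carrier of histidine and peptides, fell by 0.62 in siPRMT7 cells without IFN-γ and by 0.27 with it (adjusted p = 8.96e-10 and 0.000101).

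**Figure D3:**
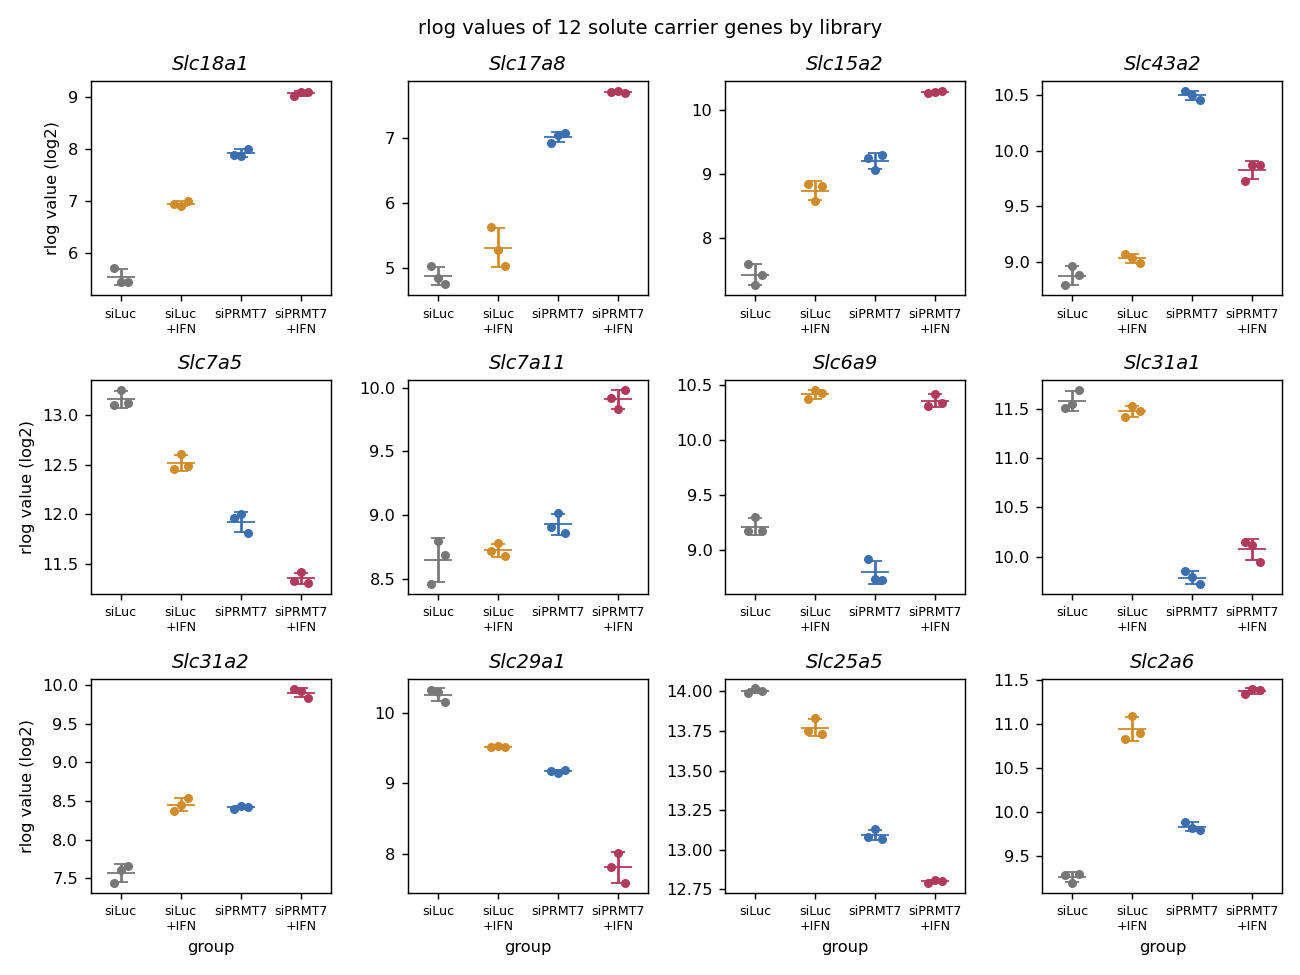
Values in each library (points, rlog scale, log2) with the group mean and SD (bars, n = 3) for 12 members, for both siRNAs, each without and with IFN-γ; each panel has its own axis range. Slc15a2 and Slc18a1 climb through 4 separate levels, Slc7a11 stands at 9.83 or above in siPRMT7 cells with IFN-γ and at 9.02 or below elsewhere, and Slc31a1 and Slc31a2 move in opposite directions with knockdown.

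Among the metal carriers, both copper carriers of the Slc31 family changed, in opposite directions. Slc31a1 (CTR1), the high-affinity copper importer, was at 11.51, 11.55 and 11.70 in siLuc and 9.85, 9.79 and 9.72 in siPRMT7 cells. With IFN-γ it was at 11.42, 11.53 and 11.48 and at 10.15, 10.12 and 9.95. No siPRMT7 library reached any siLuc library. The difference was -1.80 (SE 0.06, adjusted p = 5.85e-17), or 3.49-fold lower, which was the lowest knockdown value of the 177 members without IFN-γ, and -1.40 (SE 0.06, adjusted p = 2.80e-15) with it. Slc31a2 (CTR2), a relative found on intracellular membranes, was at 7.44, 7.61 and 7.66 in siLuc and 8.40, 8.44 and 8.42 in siPRMT7 cells. With IFN-γ it was at 8.37, 8.45 and 8.54 and at 9.95, 9.92 and 9.84, so that siLuc cells with IFN-γ and siPRMT7 cells without it overlapped and the siPRMT7 libraries with IFN-γ were highest. The knockdown gave 0.85 (adjusted p = 2.42e-10) without and 1.45 (SE 0.07, adjusted p = 3.46e-14) with IFN-γ, and the interaction was 0.60 (SE 0.09, adjusted p = 4.56e-05). Both genes lie on chromosome 4, where their promoter windows on the plus strand begin at bases 62286179 (Slc31a2) and 62360451 (Slc31a1).

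Iron and zinc carriers moved less. Of 19 members on that list, 4 were higher and 9 lower in siPRMT7 cells without IFN-γ, 5 and 8 with it (7 and 7 after median centring), and IFN-γ raised 9 and lowered 5 in siLuc cells, beside 36.3% and 38.9%, 35.9% and 38.7%, and 28.0% and 32.7% of all genes. Slc39a6 (ZIP6, a zinc importer) rose by 0.72 without and 0.95 with IFN-γ (adjusted p = 2.71e-13 and 2.62e-15), and Slc39a9 (ZIP9) rose by 0.64 and 0.70. Slc39a14 (ZIP14), which carries zinc and iron, fell by 0.58 and by 0.86 (adjusted p = 1.37e-10 and 2.22e-13). Slc48a1, the carrier of haem, which was singled out after its values were seen, fell by 0.58 and by 0.52. Slc11a2 (DMT1), the proton-coupled importer of ferrous iron, was at 11.12, 11.22 and 11.24 in siLuc and 11, 11.02 and 10.94 in siPRMT7 cells. With IFN-γ the order turned, at 11.06, 11.09 and 11.10 in siLuc and 11.34, 11.38 and 11.34 in siPRMT7 cells. The differences were -0.21 (adjusted p = 5.97e-05) and 0.27 (adjusted p = 1.58e-06), with an interaction of 0.48 (SE 0.05, adjusted p = 5.70e-07). Slc40a1 (ferroportin), the iron exporter, differed by 0.09 without IFN-γ (adjusted p = 0.270) and 0.17 with it (adjusted p = 0.0363), a call lost without siPRMT7 replicate 2 or 3 or siLuc replicate 2 or 3 of the groups with IFN-γ (adjusted p = 0.0507 to 0.147). The magnesium carrier Slc41a1 rose with IFN-γ by 0.59 in siLuc and 0.60 in siPRMT7 cells, and its knockdown differences of 0.02 and 0.04 were not called. Slc39a7 shares 80.7% of its exon bases with the overlapping gene Gm20427 on the same strand, so its value of -0.14 without IFN-γ is uncertain, and it was 0.007 (adjusted p = 0.889) after quantile normalization.

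The mitochondrial carriers hold the highest levels. Per kb of transcript, on a log2 scale, the adenine nucleotide translocases Slc25a5 (ANT2) at 13.70 and Slc25a4 (ANT1) at 12.83 and the phosphate carrier Slc25a3 at 13.06 were the highest levels among all members in siLuc cells. Slc25a5 was at 13.99, 14.02 and 14.00 in siLuc and 13.08, 13.13 and 13.07 in siPRMT7 cells, and with IFN-γ at 13.75, 13.83 and 13.73 and at 12.79, 12.81 and 12.80. The 4 groups did not overlap. Its knockdown differences were -0.91 (SE 0.04, adjusted p = 3.29e-15) and, with IFN-γ, -0.97 (SE 0.04, adjusted p = 9.07e-16). A named pseudogene of Slc25a5 stands in the annotation, so part of its reads may be shared. Slc25a4 differed by -0.63 and -0.75 (adjusted p = 9.31e-13 and 5.06e-14). Slc25a3 differed by -0.15 and -0.14, and the first of these was 0.012 (adjusted p = 0.769) after quantile normalization.

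Slc25a13 (citrin) and Slc25a12 (aralar), the 2 mitochondrial aspartate-glutamate exchangers, did not move alike. Slc25a13 was at 12.16, 12.19 and 12.31 in siLuc and 11.11, 11.10 and 11.17 in siPRMT7 cells, and at 11.82, 11.86 and 11.83 and then 10.97, 10.91 and 10.92 with IFN-γ. All siPRMT7 libraries were lower than all siLuc libraries, by -1.10 (SE 0.04, adjusted p = 9.03e-16) without and -0.90 (adjusted p = 1.77e-14) with IFN-γ. Slc25a12 differed by 0.21 (adjusted p = 0.000114) and by -0.09 (adjusted p = 0.0583). Their difference from each other was not tested. Slc25a30 (KMCP1), a carrier first described in kidney mitochondria, was raised: 8.82, 8.88 and 9.03 in siLuc against 10.20, 10.17 and 10.24 in siPRMT7 cells. With IFN-γ the values were 9.05, 8.99 and 9.06 against 10.35, 10.33 and 10.36, and the groups of unlike siRNA did not overlap. The differences were 1.29 and 1.31 (adjusted p = 4.59e-15 and 2.98e-15). Slc25a26, the carrier that brings S-adenosylmethionine, the methyl donor, into mitochondria, rose by 0.68 without and 0.92 with IFN-γ (adjusted p = 2.22e-10 and 1.50e-12); it was singled out after its values were seen.

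Slc25a34, an Slc25 member without an assigned substrate, showed both effects with opposite signs. It was at 7.71, 7.62 and 7.42 in siLuc and 8.82, 8.80 and 8.86 in siPRMT7 cells, and at 6.96, 6.91 and 6.90 and then 7.46, 7.43 and 7.45 with IFN-γ. The siPRMT7 libraries without IFN-γ were highest, and those with IFN-γ fell within the range of the siLuc libraries without it. The knockdown gave 1.24 (SE 0.08, adjusted p = 5.28e-12) without and 0.52 (adjusted p = 3.40e-06) with IFN-γ, with an interaction of -0.72 (SE 0.11, adjusted p = 2.93e-05). IFN-γ gave -0.66 in siLuc and -1.38 in siPRMT7 cells. Slc25a22, a glutamate carrier whose window with an interferon-stimulated response element match is shown above, was at 8.65, 8.57 and 8.26 in siLuc and 9.76, 9.81 and 9.83 with IFN-γ. In siPRMT7 cells it was at 8.36, 8.36 and 8.33 and, with IFN-γ, at 9.26, 9.35 and 9.22. Every library with IFN-γ was above every library without it, by 1.31 (SE 0.08, adjusted p = 2.19e-12) in siLuc and 0.92 (SE 0.08, adjusted p = 7.42e-10) in siPRMT7 cells. Slc25a28 (mitoferrin 2), which brings iron into mitochondria, rose with IFN-γ by 0.70 in both kinds of cell (adjusted p = 5.04e-08 and 5.16e-08) and fell by 0.44 with knockdown in both. Of the 7 carriers of ADP/ATP, phosphate, aspartate and glutamate, and iron, 1 was higher and 5 were lower after knockdown without IFN-γ, and 0 and 5 with it, where 38.9% and 38.7% of all genes were lower.

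**Figure D4:**
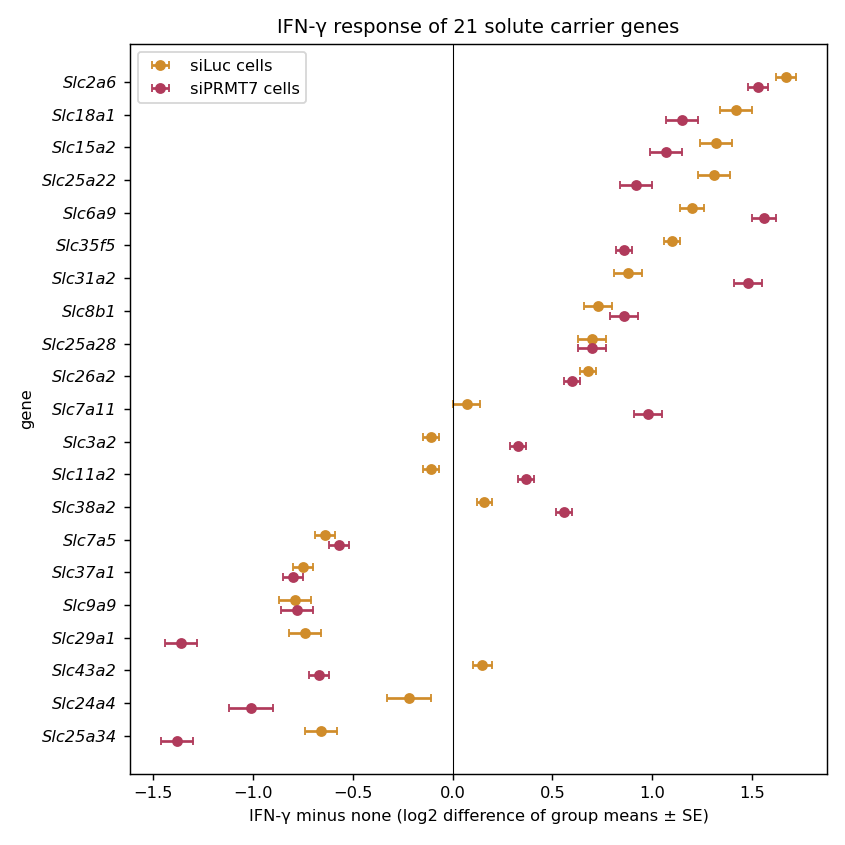
Log2 difference of group means between IFN-γ and none (x axis, points, with SE as bars) for 21 members (y axis) in siLuc cells and in siPRMT7 cells. Slc2a6, Slc6a9, Slc15a2 and Slc18a1 lie above 1 in both kinds of cell, Slc7a11 is at 0.07 in siLuc and 0.98 in siPRMT7 cells, and Slc25a34, Slc29a1 and Slc24a4 lie below -1 in siPRMT7 cells.

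Of the sugar carriers, Slc2a6 (GLUT6, a lysosomal hexose carrier) had the highest IFN-γ difference of the 177 members in siLuc cells. It was at 9.29, 9.20 and 9.30 in siLuc and 10.83, 11.09 and 10.90 with IFN-γ, and at 9.89, 9.82 and 9.80 in siPRMT7 and 11.34, 11.40 and 11.38 with IFN-γ. The groups did not overlap. IFN-γ gave 1.67 (SE 0.05, adjusted p = 5.95e-17), or 3.19-fold, in siLuc and 1.53 (SE 0.05, adjusted p = 2.84e-16) in siPRMT7 cells, and the interaction of -0.14 was not called (adjusted p = 0.176). Slc2a9 (GLUT9), a urate carrier, rose with knockdown by 1.29 and 0.91 (adjusted p = 1.25e-10 and 3.26e-08). The sugar phosphate exchangers of the endoplasmic reticulum Slc37a1 and Slc37a2 fell with IFN-γ: the differences were -0.75 and -0.79 in siLuc and -0.80 and -0.64 in siPRMT7 cells. With knockdown Slc37a1 rose by 0.51 and 0.46, while the values of Slc37a2 were -0.09 and 0.06 (adjusted p = 0.188 and 0.382). Slc2a5 (GLUT5), a fructose carrier, rose with knockdown by 0.49 and 0.66 (adjusted p = 1.32e-09 and 9.82e-12), and Slc5a3 (SMIT1), the sodium-coupled carrier of myo-inositol, by 0.65 and 0.95 (adjusted p = 1.24e-08 and 2.39e-11).

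In the nucleotide sugar families, Slc35f1, Slc35f5 and Slc35e3 have no settled substrate. Slc35f1 was at 11.01, 11.18 and 11.26 in siLuc and 10.27, 10.14 and 10.20 in siPRMT7 cells, and at 10.99, 10.95 and 10.92 and then 9.45, 9.52 and 9.34 with IFN-γ. The siPRMT7 libraries with IFN-γ were lowest and did not overlap with any other group. The differences were -0.95 (SE 0.06, adjusted p = 2.82e-12) and -1.52 (SE 0.06, adjusted p = 1.06e-15), and the interaction was -0.57 (SE 0.08, adjusted p = 1.18e-05). Slc35f5 rose with IFN-γ by 1.10 in siLuc and 0.86 in siPRMT7 cells (adjusted p = 4.10e-15 and 3.44e-13) and fell with knockdown by 0.40 and by 0.65. Slc35e3 fell by 0.67 with IFN-γ in siLuc cells, while the value in siPRMT7 cells was 0.03 (adjusted p = 0.788); the interaction was 0.70 (SE 0.14, adjusted p = 0.000421). Slc35e2 rose with knockdown by 1.07 without and 0.76 with IFN-γ (SE 0.05 for both, adjusted p = 4.72e-14 and 1.54e-11), from a siLuc mean of 9.22 to a siPRMT7 mean of 10.30 without IFN-γ. Slc35e1 fell with knockdown by 0.42 and by 0.55, and with IFN-γ by 0.51 in siLuc and by 0.64 in siPRMT7 cells (adjusted p = 2.31e-09 and 5.63e-11). Slc35a2, the UDP-galactose carrier of the Golgi, rose with IFN-γ by 0.61 in siLuc and 0.30 in siPRMT7 cells (adjusted p = 9.69e-10 and 2.69e-05).

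Of the inorganic ion carriers, 15 of 24 were called higher after knockdown without IFN-γ, beside 36.3% of all genes. Slc24a4 is counted among the 15. Slc24a4, a potassium-dependent sodium-calcium exchanger, was at 5.89, 5.97 and 6.01 in siLuc and 7.59, 7.62 and 7.54 in siPRMT7 cells, and at 5.63, 5.70 and 5.87 and then 6.38, 6.53 and 6.82 with IFN-γ. The siPRMT7 libraries without IFN-γ stood apart above the rest. The difference was 1.63 without and 0.84 with IFN-γ, and the interaction was -0.78. It reached the mean of 6 only through the siPRMT7 groups, so its knockdown differences and its interaction are a description. The anion carrier Slc26a7 rose by 0.82 and 1.18 (adjusted p = 1.44e-08 and 4.24e-11), and the endosomal sodium-proton exchanger Slc9a9 rose by 0.44 and 0.45; with IFN-γ in siLuc cells the former fell by 0.84 and the latter by 0.79. Slc8b1 (NCLX), the sodium-calcium exchanger of mitochondria, rose with IFN-γ by 0.73 in siLuc and 0.86 in siPRMT7 cells. Slc26a2, a sulphate carrier, likewise rose by 0.68 and 0.60. Against the balance of the class, the bicarbonate cotransporter Slc4a4 was lower by -0.99 (SE 0.10, adjusted p = 2.36e-08) with IFN-γ and -0.28 (adjusted p = 0.0191) without it. The latter call was lost without siLuc replicate 2 or 3 or siPRMT7 replicate 1 or 3 (adjusted p = 0.0562 to 0.101). The sodium-coupled bicarbonate exchanger Slc4a8 rose with knockdown by 0.74 and 0.81 (adjusted p = 3.97e-13 and 9.08e-14). The phosphate carriers Slc20a1 (PIT1) and Slc20a2 (PIT2) went apart: Slc20a1 fell by 0.79 and by 0.91 (adjusted p = 9.22e-12 and 1.04e-12), and Slc20a2 rose by 0.70 and 0.52 (adjusted p = 6.18e-12 and 8.56e-10). IFN-γ lowered Slc20a1 in both kinds of cell, by 0.50 and by 0.62.

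Among the carriers of organic ions, Slc18a1 and Slc17a8 reached the mean of 6 only through the groups where they are high. Their knockdown differences, and the IFN-γ differences of Slc18a1, follow in part from how the members were chosen and are given with no test. Slc18a1 (VMAT1), which loads monoamines into vesicles, was at 5.71, 5.45 and 5.44 in siLuc and 7.88, 7.86 and 8.0 in siPRMT7 cells. With IFN-γ it was at 6.95, 6.90 and 7.0 and at 9.01, 9.09 and 9.10. The groups formed 4 steps without overlap. The knockdown difference was 2.38, or 5.20-fold, without and 2.11 with IFN-γ, and IFN-γ gave 1.42 in siLuc and 1.15 in siPRMT7 cells. Slc17a8 (VGLUT3), a vesicular glutamate carrier, was at 5.04, 4.85 and 4.76 in siLuc and 6.92, 7.04 and 7.08 in siPRMT7 cells, and with IFN-γ at 5.64, 5.28 and 5.04 and at 7.71, 7.72 and 7.69. All siPRMT7 libraries were above all siLuc libraries, by 2.13 and 2.39. Both genes are weakly expressed in siLuc cells, where rlog values are drawn toward the overall mean. In the authors' deposited table their log2 fold changes without IFN-γ were 3.11 for Slc18a1 and 3.20 for Slc17a8. Slc16a6 (MCT7), a monocarboxylate carrier relative, turned over: the difference was 0.35 (adjusted p = 0.000172) without and -0.42 (adjusted p = 2.30e-05) with IFN-γ, and the interaction was -0.78 (SE 0.10, adjusted p = 4.89e-06). Its value is uncertain, because Amz2 on the opposite strand covers 21.5% of its exon bases and has the higher mean, 9.47 against 8.38. Slc10a7 rose with IFN-γ by 0.45 in siLuc and 0.28 in siPRMT7 cells (adjusted p = 5.65e-07 and 0.000216). Slc18b1, a vesicular polyamine carrier, fell with IFN-γ by 0.31 and by 0.50 (adjusted p = 0.000193 and 6.03e-07).

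Folate, thiamine and nucleoside carriers changed in both directions. Slc19a1, the reduced folate carrier, was at 9.15, 9.29 and 9.22 in siLuc and 8.31, 8.14 and 8.14 in siPRMT7 cells, and at 8.97, 9.02 and 8.84 and then 7.69, 7.59 and 7.67 with IFN-γ. It was lower in every siPRMT7 library, by -1.03 (SE 0.07, adjusted p = 2.00e-11) and -1.29 (SE 0.07, adjusted p = 4.41e-13). The related thiamine carrier Slc19a2 was at 9.48, 9.52 and 9.62 in siLuc and 10.70, 10.65 and 10.74 in siPRMT7 cells, and at 9.11, 9.22 and 9.01 and then 10.46, 10.34 and 10.54 with IFN-γ. It was higher in every siPRMT7 library, by 1.16 and 1.34 (adjusted p = 1.46e-13 and 1.25e-14). Slc29a1 (ENT1), the equilibrative nucleoside carrier, was at 10.33, 10.29 and 10.16 in siLuc and 9.51, 9.53 and 9.52 with IFN-γ. In siPRMT7 cells it was at 9.18, 9.15 and 9.19 and, with IFN-γ, at 7.82, 8.02 and 7.59. The groups went down in 4 steps without overlap. The knockdown gave -1.09 (SE 0.08, adjusted p = 3.96e-11) without and -1.71 (SE 0.08, adjusted p = 2.04e-14), or 3.27-fold lower, with IFN-γ, and the interaction was -0.62 (SE 0.11, adjusted p = 0.000133). Of the 7 members that carry folate, glycine or serine, 1 was higher and 6 were lower in siPRMT7 cells without IFN-γ, and 0 and 4 with it (1 and 4 after median centring), where 38.9% and 38.7% of all genes were lower.

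Of the lipid carriers, Slc27a6 (FATP6), a fatty acid carrier, was at 9.35, 9.38 and 9.49 in siLuc and 8.24, 8.16 and 8.15 in siPRMT7 cells, and at 9.54, 9.53 and 9.51 and then 7.92, 7.98 and 8.02 with IFN-γ. No siPRMT7 library reached a siLuc library. The differences were -1.23 (SE 0.06, adjusted p = 6.45e-14) and -1.55 (SE 0.06, adjusted p = 1.12e-15). The choline carrier Slc44a1 had a value of -0.00 (adjusted p = 0.949) without and fell by 0.21 with IFN-γ (adjusted p = 0.000287). Its relatives Slc44a2 and Slc44a3 rose with IFN-γ in siLuc cells by 0.36 and 0.33 (adjusted p = 4.34e-07 and 2.52e-06). Slc33a1, the carrier of acetyl-CoA into the endoplasmic reticulum, fell with knockdown by 0.45 and by 0.27 (adjusted p = 1.92e-08 and 2.46e-05). Gm26850, on the opposite strand, overlaps 32.0% of the exon bases of Slc33a1, with a mean of 8.06 against 10.11. Slc27a1 (FATP1) rose with IFN-γ by 0.58 in siLuc and 0.71 in siPRMT7 cells (adjusted p = 0.000186 and 2.03e-05).

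**Figure D5:**
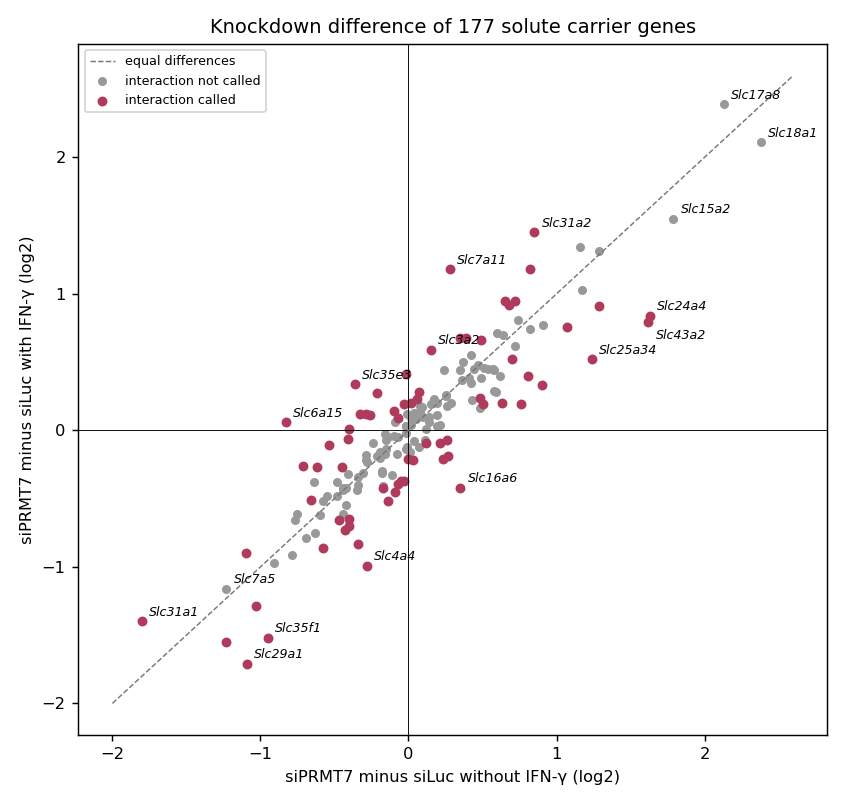
Log2 difference between siPRMT7 and siLuc cells without IFN-γ (x axis) against that with it (y axis) for the 177 members, with each point 1 member, coloured where the interaction was called, and a dashed line at equal differences. Slc7a11, Slc6a15 and Slc31a2 lie above the line and Slc43a2, Slc24a4 and Slc29a1 below it.

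The comparisons of siPRMT7 with siLuc cells without and with IFN-γ use different libraries. In both, 54 members were called higher and 52 lower, 24 were called in neither, and 8 were called in opposite directions. Over all genes tested the shares were 28.7% higher in both, 31.8% lower in both, 13.6% in neither and 2.89% in opposite directions. Those lower without and higher with IFN-γ were the amino acid carriers Slc38a1, Slc38a2 and Slc38a7, the iron carrier Slc11a2 and Slc35e3. Those higher without and lower with IFN-γ were Slc16a6, the magnesium carrier relative Slc41a3 and Slc45a4. These 8 were listed after their values were seen, and their differences were small, from -0.42 for Slc16a6 with IFN-γ to 0.35 for Slc16a6 without it. Several rest on the processing: after quantile normalization Slc38a1 was 0.121 without IFN-γ (adjusted p = 0.00128) in place of -0.10, and Slc41a3 was not called in either comparison. With IFN-γ, Slc45a4 was not called after median centring (-0.102, adjusted p = 0.0611), nor Slc38a2 (0.12) without siLuc replicate 1 or siPRMT7 replicate 3. Slc38a7 (0.12 with IFN-γ) was not called under 5 alternatives, with an adjusted p between 0.0541 and 0.218. Likewise, the IFN-γ response was called higher in both kinds of cell for 37 members and lower in both for 43, and it was called in opposite directions for 8: Slc3a2, Slc6a15, Slc11a2, Slc16a6, Slc25a38, Slc25a45, Slc39a14 and Slc43a2. In neither kind of cell were 31 called. Over all genes the shares were 19.1% higher in both, 21.2% lower in both, 2.64% in opposite directions and 25.7% in neither. Of the 8, Slc6a15 kept both calls under every alternative tried, at -0.37 in siLuc and 0.52 in siPRMT7 cells. The others lost a call under at least 1 alternative; in siLuc cells, for example, Slc43a2 (0.15) had an adjusted p of 0.273 after quantile normalization. The IFN-γ contrasts share libraries with the knockdown contrasts and are not independent of them.

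Transporters that carry other symbols were examined as well. Of 31 listed, 22 were tested; 5 were higher and 13 lower in siPRMT7 cells without IFN-γ, and 7 and 13 with it, beside 36.3% and 38.9%, then 35.9% and 38.7%, of all genes. Mpc1, a subunit of the mitochondrial pyruvate carrier, fell by 1.11 and by 1.15, and Sfxn2, a mitochondrial sideroflexin, fell by 0.91 and by 1.22. Npc1, which exports cholesterol from lysosomes, fell by 0.66 and by 0.56, and Nipal3 rose by 1.10 and 1.09. Slco2a1, the prostaglandin carrier, rose with IFN-γ by 2.79 in siLuc and 1.66 in siPRMT7 cells (SE 0.13 for both, adjusted p = 8.45e-14 and 6.27e-10), with an interaction of -1.13 (SE 0.19, adjusted p = 8.81e-05). These 5 were singled out after their values were seen.

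In the authors' deposited table, at an adjusted p under 0.05, 124 members were called between siPRMT7 and siLuc cells without IFN-γ and 123 with it, and 101 and 102 were called for IFN-γ in siLuc and siPRMT7 cells. Each was also called by limma in the same direction, and limma called a further 10, 10, 20 and 11. The share of all genes called in the authors' table is not given here. These counts therefore compare both tests on the same members and are not a result about the carriers.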

How the data were processed

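RNA from 12 libraries of B16.F10 cells was sequenced from a strand-marking poly(A) kit, per the labels' protocols. The deposited per-library values are rlog values on a log2 scale, per the file headers, made by the authors from read counts not used here; they shrink weakly expressed genes toward their mean, which understates both change and spread. Fold changes (log2) and adjusted p-values of the authors were deposited in the same table. The submitters' processing notes name DESeq2 1.26.0, HOMER 4.11.1, STAR 2.7.1a and Trimmomatic 0.39, with mm10 (GRCm38) as the build. The IFN-γ dose differs between the labels and is not printed. Library totals were 18.971 to 30.978 M.

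In R 4.3.3, limma 3.58.1 was run on the 14407 genes whose mean reached 4 (1 per symbol, the highest mean), with a mean for each of 4 groups, a mean-variance trend and 2-sided tests. P-values were adjusted by Benjamini-Hochberg over all of these genes, and 0.05 was the threshold. Residual degrees of freedom were 8 and prior ones 12.4. The procedure was tested on simulated data. Values per kb divide 2 to the power of the rlog value by the deposited transcript length. The members, substrate classes and role lists were chosen with earlier results of these data known. Named in each comparison were the 8 called members that rose most and the 8 that fell most (groups not overlapping, except in the interaction), up to 2 called members of each substrate class with the smallest p, and members of the role lists; others are said to be singled out. Alternatives were median centring, quantile normalization, no filter, a mean of at least 6, no trend, the 2 groups alone, the replicate block, and leaving out each library. Members overlapping another gene over more than 10% of exon bases, at a similar or higher level, are given as uncertain, since strand use in counting is not stated in the sources used here.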

Additional observations from a re-analysis of the deposited data

Results flagged for a closer look

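The knockdown difference was not the same without and with IFN-γ in 69 members, by the interaction test in limma at an adjusted p under 0.05 over all genes tested. That is 39.0% of the members, against 30.6% of all genes tested and 33.7% of genes with a mean of at least 6. The 24 given here are those named for this test by the rule on named genes; the other 45 include Slc31a1 (0.40), Slc38a2 (0.40), Slc6a9 (0.35), Slc39a14 (-0.27), Slc25a22 (-0.38), Slc41a3 (-0.45) and Slc6a17 (-0.30), described above. The interaction was above 0 for Slc7a11 (0.91), Slc6a15 (0.89), Slc35e3 (0.70), Slc31a2 (0.60), Slc11a2 (0.48), Slc25a33, a pyrimidine nucleotide carrier (0.46), Slc38a7 (0.46) and Slc3a2 (0.44). It was also above 0 for Slc35c2, a carrier of the GDP-fucose family (0.43), Slc25a38, the mitochondrial glycine carrier (0.41), and Slc17a5, the lysosomal sialic acid carrier (0.37). The value of Slc24a4, which reached the mean of 6 only through the siPRMT7 groups, was -0.78 and is a description. The interaction was below 0 as well for Slc43a2 (-0.83), Slc16a6 (-0.78), Slc25a34 (-0.72), Slc4a4 (-0.71), Slc29a1 (-0.62), Slc25a35 (-0.57) and Slc35f1 (-0.57). It was also below 0 for Slc45a4 (-0.45), Slc50a1 (-0.34), Slc27a6 (-0.33), Slc23a2, the ascorbate carrier (-0.32), and Slc44a1 (-0.21). Those of Slc44a1 and Slc50a1 lost their call under some alternatives, with an adjusted p up to 0.0574 for Slc44a1 and 0.0518 for Slc50a1. Slc25a35 overlaps Rangrf on the opposite strand over 31.3% of its exon bases, where Rangrf has a mean of 4.46.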

How the results depend on the processing

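All 188 recomputed counts over the 177 members together stayed within 1.5 times the reported count. Counts within substrate classes and role lists moved further in 9 of 150 after median centring and in 14 of 150 after quantile normalization; for organic anion and cation carriers higher after knockdown with IFN-γ, 2 became 6 and 5. Medians also depended on the scaling. After median centring 18 of the recomputed medians counted as moved and 37 as the same, and after quantile normalization 21 and 34. Leaving out each library in turn gave 64 to 71 members higher and 62 to 66 lower for knockdown without IFN-γ, and 64 to 69 and 64 to 68 under IFN-γ. For IFN-γ it gave 50 to 59 higher and 55 to 65 lower in siLuc cells and 46 to 52 and 54 to 64 in siPRMT7 cells, and for the interaction 27 to 32 and 28 to 37. Among recomputed values of single genes, 9405 kept direction and side of the threshold, 270 lost a call, 93 gained one and 3 reversed. The reversals were without IFN-γ after quantile normalization, at 0.012 for Slc25a3, 0.007 for Slc39a7 and 0.121 for Slc38a1; the cause was not tested. The labels give each library a serie number, shared across the 4 groups, and do not say what it marks. Same-numbered libraries had a correlation of deviations of -0.124 to 0.224 over 18 pairs. This was not over 0.1 in every pair, so the numbers were not taken as pairs, although 8 of 12 libraries lay closest to their own number, which is a hint of a shared series. With the replicate block, 71 members were higher and 65 lower in the knockdown comparison without IFN-γ, and 70 and 66 in that with IFN-γ; the IFN-γ comparisons gave 58 and 64 in siLuc and 51 and 62 in siPRMT7 cells, and the interaction 32 and 37. The data are limited by 3 libraries of 1 line in each group, by deposited values that hide counts, and by a knockdown that moved about as large a share of all genes as of these carriers.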
